A study of Mus musculus with 10 samples.

Results

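The cells described here are Unc5d-positive glutamatergic neurons of the mouse cortex at E16.5 (embryonic day), proposed as upper-layer neurons on their way to the cortical plate. They were chosen cell by cell from counts of unique molecular identifiers (UMIs, 1 per captured RNA molecule) in droplet single-cell RNA-seq of 10 embryos. A cell was taken if it carried at least 2 Unc5d UMIs, showed at least 4 of Unc5d, Pdzrn3, Sema3c, Rnd2, Sstr2 and Nrp1, held at most 1 Eomes UMI and held at most 1 UMI of Dlx1, Dlx2 and Dlx5 together. The rule took 5006 of 65779 cells that passed the filters (at least 1000 UMIs, at most 10% mitochondrial UMIs), or 7.61%. Each embryo gave 369 to 662 of these neurons. All 4 markers that name the population (Unc5d, Pdzrn3, Sstr2 and Rnd2) were used by the rule, so their levels are given as a description and not tested.

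Cortices came from 3 wild-type embryos (WT), 4 embryos with 1 mutant allele of Gatad2b (stop/+, Het) and 3 with 2 mutant alleles (stop/stop, KO), with 1 library per embryo, to follow how loss of Gatad2b acts on cortical development. All shared the C57BL/6N-A tm1Brd background. The mutant allele, Gatad2b tm1a(EUCOMM)Hmgu, is a germline gene trap in an intron, so every cell type of a mutant embryo carries it, and the exons behind the trap remain in the genome and can still give 3′ UMIs. The libraries carry 1 of 2 name prefixes, whose meaning is not stated. WT1 to WT3 and Het4 share 1 prefix, and Het1 to Het3 and KO1 to KO3 share the other, so for KO against WT the genotype and the prefix cannot be told apart. KO was therefore also compared with Het1 to Het3 alone, within 1 prefix.

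Upper-layer neurons are born late in corticogenesis, mostly through intermediate progenitors that express Eomes in the subventricular zone. Newborn neurons pass through a multipolar stage, in which Unc5d, Rnd2 and Neurod1 are switched on, then become bipolar and migrate along radial glia into the cortical plate. Unc5d encodes a netrin-family receptor that is repelled by FLRT proteins on other cells and slows the entry of these neurons into the plate. Migration itself cannot be seen in RNA counts, so the cells are called Unc5d-positive neurons below. Gatad2b encodes a subunit of the NuRD complex, which couples nucleosome remodelling to histone deacetylation.

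The Unc5d-positive neurons gave 5678259 to 11083528 UMIs per embryo, with medians of 11544 to 15725 UMIs and 3760 to 4247 genes per cell. Median UMIs per cell were 11544 to 13803 in WT embryos, 12208 to 14479 in Het and 14708.5 to 15725 in KO embryos. Cells of the glutamatergic lineage were taken as those with at least 2 UMIs of Neurod2 and Neurod6 together that met the Dlx limit. At least 99.4% of the Unc5d-positive neurons in each embryo belonged to it, with the Dlx limit already met by the rule. Of 1679 erythroid cells, which should lack Unc5d, 44 held an Unc5d UMI (2.62%, exact 95% interval 1.91% to 3.50%, median 10343 UMIs) and 5 met the rule (0.298%), which free RNA or doublets with a neuron can give and which were not told apart. Intervals cover counting error only.

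To place the population along the lineage, its UMIs were summed per WT embryo and set beside those of 2 other cell groups of the same embryos. One group was 3627 Eomes cells (at least 3 Eomes UMIs), which hold intermediate progenitors. The other was 6336 Cdh12 Hs6st2 cells, which hold settled upper-layer neurons. These had at least 1 UMI of Cdh12 and 1 of Hs6st2, at least 3 of both together, and at most 1 of Unc5d and 1 of Eomes. Both groups left out the Unc5d-positive neurons and cells with more than 1 UMI of Dlx1, Dlx2 and Dlx5 together. Levels are CPM (a gene's UMIs per 1000000 of the summed UMIs), as mean ± SD over 3 WT embryos where an error is given. Unc5d, a rule gene, was at 192 ± 29.3 CPM in Eomes cells, 313 ± 34.7 in Unc5d-positive neurons and 7.36 ± 0.936 in Cdh12 Hs6st2 cells. Limits on Unc5d UMIs chose the last 2 groups, so their levels follow by construction. Eomes cells had no Unc5d limit. Of cells that met the Unc5d-positive rule apart from Eomes, 1928 had 2 or more Eomes UMIs. Those with at least 3 are among the Eomes cells.

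Genes that the rule did not use showed a mixed picture in WT embryos. Neurod1, a proneural factor of newborn neurons, averaged 413, 244 and 70.5 CPM in Eomes cells, Unc5d-positive neurons and Cdh12 Hs6st2 cells, in that order, a stepwise decline. Insm1, a factor of delaminating progenitors, was at 208 ± 32.8 CPM in Eomes cells, 204 ± 17.4 in Unc5d-positive neurons and 47.1 to 54.7 in Cdh12 Hs6st2 cells, so the first 2 did not differ beyond their spread. Sox2, Pax6 and Mki67, which mark radial glia and dividing cells, were at 18.9 ± 3.51, 28.8 ± 6.13 and 17.8 ± 8.61 CPM in Unc5d-positive neurons against 159 ± 11.6, 201 ± 7.99 and 199 ± 48.7 CPM in Eomes cells.

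Neuronal genes took different courses over the same 3 groups. Neurod6 averaged 740.4, 1312 and 1630.2 CPM, a stepwise rise, and Neurod2 averaged 305, 731 and 649 CPM, with the highest level in the middle group. The POU factor Pou3f2, a factor of upper-layer neurons, was highest in the middle group, at 722, 941 and 557 CPM. Cux2, another upper-layer factor, averaged 45.6, 115 and 99.9 CPM. Bcl11b, best known from layer V neurons, was also highest in the middle group among these 3, at 107, 234 and 123 CPM, but averaged 389 CPM over the other kept cells of the cortex. Fezf2 averaged 71.2, 55.5 and 27.0 CPM. Neurod1, Neurod6 and Fezf2 in Unc5d-positive neurons thus lay between the levels of the other groups, whereas Neurod2, Pou3f2, Cux2 and Bcl11b were highest in Unc5d-positive neurons. The layer these neurons will join cannot be read from these genes.

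**Figure D1:**
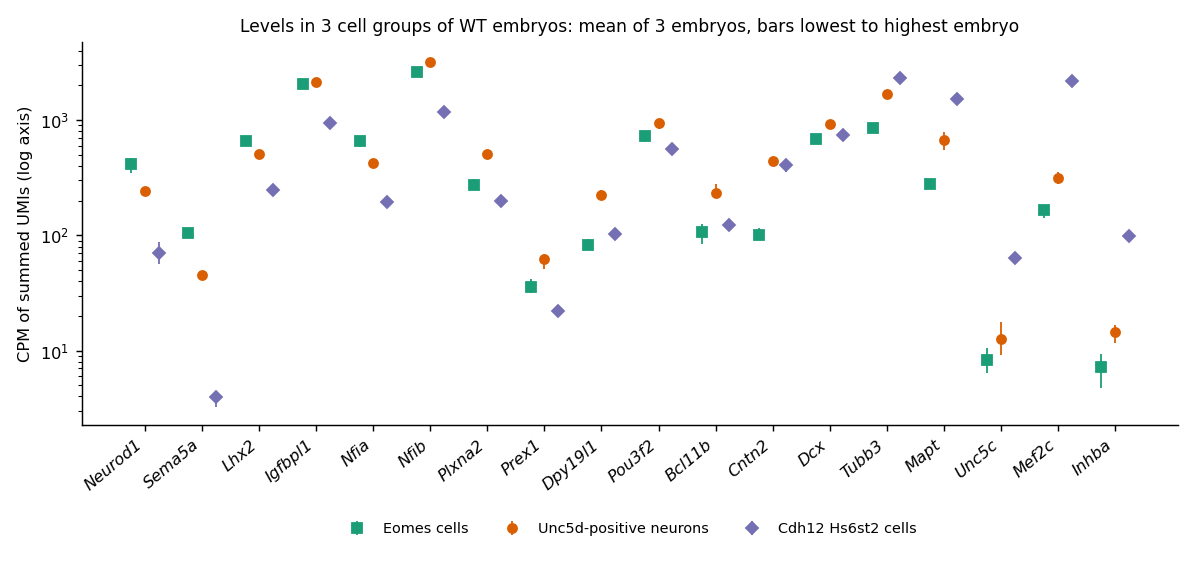
Levels of 18 genes (CPM of summed UMIs, log axis) in Eomes cells, Unc5d-positive neurons and Cdh12 Hs6st2 cells of WT embryos, with points for the mean of 3 embryos and bars from the lowest to the highest. Neurod1 declined from 413 to 244 to 70.5 CPM, while Pou3f2 and Bcl11b were highest in Unc5d-positive neurons.

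The genes with the highest ratio of Unc5d-positive neurons to other kept cells in WT, outside the rule and without Rik names, were Ly6g6e (3.13), Sh3bgrl2 (2.93), Pou3f2 (2.85), the potassium channel gene Kcnn3 (2.83) and Slc17a6, the vesicular glutamate transporter VGLUT2 (2.76). They were followed by Lypd6, Insm1, Ndst3, Prex1 and Frmd4b (2.75 to 2.58). These ratios come from the cells the rule selected and are a description. Exactly 2 Unc5d UMIs were held by 1103 neurons, whereas 1524 cells outside had 1 Unc5d UMI and at least 4 rule genes. Rule genes were detected 4, 5 and 6 at a time in 1458, 2093 and 1455 neurons, and 904 cells with 3 stayed outside. Detection of the rule genes differed between the genotypes. Exactly 4 were detected in 37.5% to 39.3% of the neurons of WT embryos, 28.7% to 37.1% in Het and 17.5% to 18.8% in KO embryos, and all 6 in 18.3% to 22.0%, 23.7% to 30.3% and 36.9% to 39.9%. The cells with 3 that stayed outside were 158, 131 and 146 in WT embryos, 77, 77, 84 and 83 in Het and 50, 47 and 51 in KO embryos. The Eomes limit admitted 474 neurons with 1 Eomes UMI and kept out 1928 cells with 2 or more. The Dlx limit kept out 270 cells. Unc5d had a median of 4 UMIs per neuron in every embryo and a maximum of 51.

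For the rule genes themselves, levels in the chosen cells are given by genotype as a description. Unc5d, the receptor gene, was at 341, 274 and 324 CPM in WT, 312, 334, 285 and 288 in Het and 271, 302 and 307 in KO embryos, and the groups overlapped. Rnd2, a small GTPase gene that drives the multipolar to bipolar step, was at 183, 200 and 184 CPM in WT, 194, 208, 195 and 292 in Het and 287, 288 and 311 in KO embryos. All KO embryos, Het2 and Het4 were above every WT embryo. Pdzrn3, an E3 ligase gene, was at 83.4 to 120 CPM in WT and 142 to 149 in KO embryos, without overlap, and Sstr2, a somatostatin receptor gene, at 86.9 to 108 and 112 to 118, also without overlap. Sema3c, a secreted semaphorin gene, was at 237 to 275 CPM in WT and 221 to 244 in KO embryos, and the receptor gene Nrp1 at 548 to 709 and 567 to 639, with overlap for both. These values were used to choose the cells and are not tested.

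Unc5d-positive neurons made up a larger part of the kept cells in KO than in WT embryos, but the design could not reach a p under 0.05 for this. They were 7.28%, 5.15% and 5.47% of kept cells in WT embryos, 10.1%, 6.05%, 6.89% and 6.74% in Het embryos and 8.97%, 10.6% and 10.7% in KO embryos. Every KO embryo was above every WT embryo, whereas Het1 fell among the KO embryos and the other Het embryos among or near WT. The means were 5.97% ± 1.15, 7.46% ± 1.82 and 10.1% ± 0.98 (SD). KO exceeded WT by 4.14 percentage points (exact two-sided permutation p = 0.1, adjusted 0.171, the smallest p that 3 against 3 embryos allow being 0.1), and Het exceeded WT by 1.49 points (exact permutation p = 0.229), or by 0.594 points without Het1. Within the glutamatergic lineage the means were 10.2%, 12.6% and 17.1%.

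Depth and the rule genes bear on these shares. After each cell was thinned to 5000 UMIs, the same rule took 3.00% of WT, 3.31% of Het and 4.54% of KO cells. The KO excess over WT was 1.54 points and the Het excess 0.304 points. KO1 (3.801%) lay only just above WT1 (3.798%), and Het1 (4.48%) lay above KO1. WT embryos had more cells just outside the limit of 4 rule genes than KO embryos (131 to 158 against 47 to 51). Since the levels of Rnd2, Pdzrn3 and Sstr2 in KO lay above those in WT, more cells of this kind and more of these RNAs per cell cannot be told apart in the share. In the same embryos the Cdh12 Hs6st2 cells made up 11.3%, 10.3% and 6.59% of kept cells in WT, Het and KO, and the Eomes cells 3.95%, 5.85% and 7.11%. After thinning these were 5.11%, 3.71% and 1.53% for Cdh12 Hs6st2 cells and 3.08%, 4.06% and 5.23% for Eomes cells. Hs6st2, which chose the former, was itself lower in KO in Unc5d-positive neurons (given below), so fewer cells and less of this RNA per cell cannot be told apart there either.

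**Figure D2:**
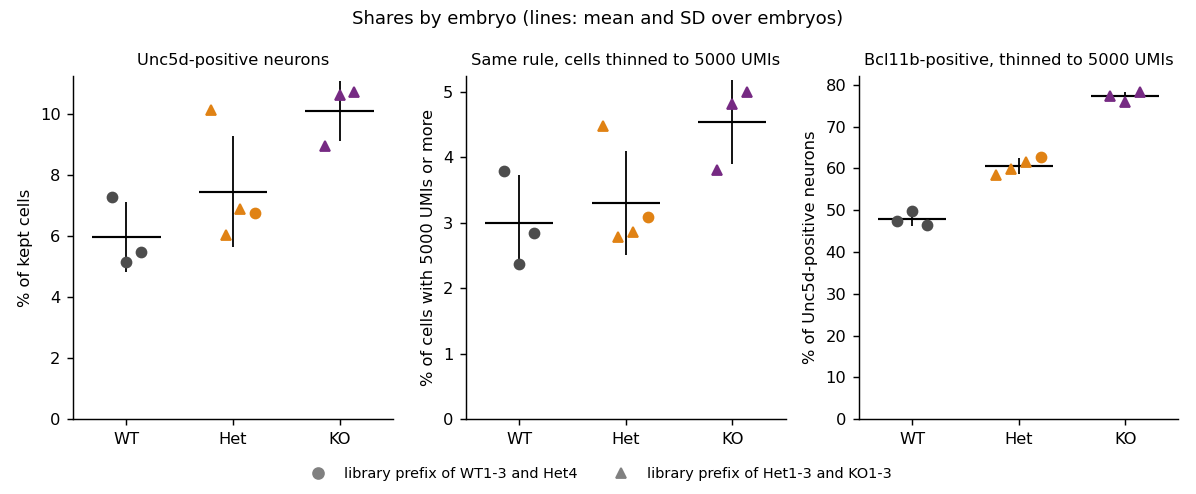
Shares per embryo, with lines for mean and SD and symbols for the library prefix: Unc5d-positive neurons among kept cells, the same after thinning to 5000 UMIs, and Bcl11b-positive cells among thinned Unc5d-positive neurons. KO embryos lie above all WT embryos in each panel, at 8.97% to 10.7% against 5.15% to 7.28% in the first. In the second the margin is small, with KO1 at 3.801% and WT1 at 3.798%.

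For gene tests, UMIs of the Unc5d-positive neurons were summed per embryo and fitted over all 10 embryos with edgeR's quasi-likelihood test. Depth per cell and detection of the rule genes differed between KO and WT neurons, as given above. The make-up of the chosen cells may therefore differ between genotypes, and its part in the fold changes was not tested. Embryo values from here on are CPM normalized by trimmed means (TMM), fold changes are log2 values ± standard error, adjusted p-values are Benjamini-Hochberg values over 12395 genes, and genes with an adjusted p under 0.05 and a log2 fold change beyond 0.25 were called. Gatad2b, the targeted gene, was at 166, 155 and 161 CPM in WT, 111, 117, 112 and 117 in Het and 63.4, 68.3 and 73.7 in KO embryos. The groups did not overlap and fell with the number of mutant alleles (log2 fold change -0.50 ± 0.06, adjusted p = 0.000984 for Het, which was -0.46, adjusted p = 0.0536, with the prefix as a covariate, and -1.23 ± 0.06, adjusted p = 5.69e-08 for KO against WT). UMIs remained in KO embryos, whose exons are retained. Het4, which shares the WT prefix, lay with the other Het embryos.

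In KO against WT, 2287 genes were called, 18.5% of those tested, with 1086 higher (8.76%) and 1201 lower (9.69%), the background for the counts of gene lists below. With the prefix as a covariate 417 were called, of which 58.0% were higher rather than 47.5%. In Het against WT, 91 were called (0.734%), or 5 with the prefix as a covariate, and leaving out 1 embryo gave 13 (without WT3) to 540 (without Het4). Of 16 genes of the lists below called in Het, Gatad2b, Nfia, Arpp21 and Ephb1 held with any 1 embryo left out, whereas each of the other 12 was lost without any 1 of 5 to 9 of the 10 embryos, and Nfia alone held with the prefix as a covariate. In KO against Het 379 were called (3.06%), with 146 to 478 on leaving out 1 embryo, the lowest without KO3, or 595 of 12271 (4.85%) within 1 prefix. The groups did not overlap for 39.39% of all genes in KO against WT, 12.66% in Het against WT and 16.46% in KO against Het, so lack of overlap is given below as a description only. The first principal component, with 34.2% of the variance, ran from -26.9 to -14.8 in WT through -5.78 to 6.20 in Het to 22.9 to 28.9 in KO embryos. The median log2 fold change of all genes in KO against WT was -0.01. The study describes the Het and WT embryos as littermates, but the labels give no litter for any embryo, so litter could not enter the fit, and p-values measure the spread between these embryos.

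RNA of other cell types in the Unc5d-positive neurons differed between embryos, and not in 1 direction for all types. The summed level of 12 interneuron markers in Unc5d-positive neurons was 110 to 126 CPM in WT embryos, 79.0 to 108 in Het and 71.8 to 79.2 in KO embryos, and 7 of the 11 tested were called lower in KO, 1 of them also with the prefix as a covariate. The sum of 7 endothelial and mural markers was 9.43 to 114, 7.04 to 13.2 and 4.24 to 5.46 CPM, with 3 of 3 tested called lower in KO, again 1 with that covariate. That of 5 choroid plexus markers was 2.51 to 43.7, 0 to 0.567 and 0.107 to 0.902 CPM. Other sums were highest in Het embryos. The sum of 6 erythroid markers was 94.5 to 739.9 CPM in WT embryos (median 108), 224 to 2518 in Het (median 874) and 36.9 to 692 in KO embryos (median 45.8), and that of 5 Cajal-Retzius markers had medians of 39.3, 93.7 and 38.3 CPM. Of 8 dividing-cell markers edgeR and DESeq2 called 0 in KO against WT, with 3 lower and 1 higher at an unadjusted p under 0.05, and of 5 erythroid markers both called 0, with 0 at that p. No listed marker was at 0 over all Unc5d-positive neurons. Their part in other results was not tested. Below, UMIs of other cell types means those of Gad1, Gad2, Slc32a1, Lhx6, Npy, Sst, Cldn5, Pecam1, Flt1, Rgs5, Ttr, C1qa, C1qb and C1qc. Erythroid, Cajal-Retzius, radial glia and dividing-cell genes are not among them. The number of calls that held without the neurons carrying UMIs of the named genes is given for each list. Leaving them out removed 41.0% to 62.7% of the neurons in WT embryos, 22.8% to 30.7% in Het and 14.3% to 18.3% in KO embryos, so 199 to 252 neurons remained per WT embryo against 451 to 541 per KO embryo, and a call can also be lost to the smaller WT sums.

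NuRD genes changed in both directions in KO. Of 16 tested, 7 were called higher and 2 lower (Gatad2b itself and Chd5), with a median log2 fold change of 0.20. Gatad2a, the paralog of Gatad2b, was at 56.0, 55.3 and 65.3 CPM in WT, 62.2, 67.5, 70.0 and 75.7 in Het and 89.7, 87.4 and 88.4 in KO embryos, with every KO embryo above every WT and Het embryo (log2 fold change 0.59 ± 0.08, adjusted p = 0.000209). Cdk2ap1, a small subunit of the complex, was at 123, 129 and 113 CPM in WT, 195, 205, 199 and 139 in Het and 223, 292 and 255 in KO embryos. Het1 to Het3 lay between WT and KO, and Het4 lay just above WT (log2 fold change 1.08 ± 0.12, adjusted p = 5.66e-05 for KO, and 0.60 ± 0.12, adjusted p = 0.0359 for Het against WT). The Het call was lost without any 1 of 7 embryos, and was 0.20, adjusted p = 0.742, with the prefix as a covariate. Hdac1 and Hdac2, the deacetylases, were also higher in KO (0.43 ± 0.09, adjusted p = 0.00445, and 0.35 ± 0.06, adjusted p = 0.000819). Chd5, the remodeler of postmitotic neurons, was at 41.6 to 60.6 CPM in WT embryos, 34.8 to 49.3 in Het and 30.9 to 40.3 in KO embryos (log2 fold change -0.62 ± 0.15, adjusted p = 0.00833). Mta1, Mta3 and Cdk2ap2 completed the higher genes, and Chd3, Chd4, Mbd2, Mbd3, Mta2, Rbbp4 and Rbbp7 were not called. Of the 9 calls, 5 held with the library prefix as a covariate (Gatad2a, Gatad2b, Hdac1, Hdac2 and Cdk2ap1), 7 without the neurons that carried UMIs of other cell types, and 6 held with any 1 embryo left out, with Mta1, Mta3 and Cdk2ap2 losing it.

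Of 19 deep-layer identity genes tested, 6 transcription factor genes were called higher in KO, 2 genes of low level were called lower and 11 were not called. The median log2 fold change was 0.02, and 9 of the 19 had a negative value. Of the 6, Nfia and Nfib are also expressed in upper layers and glia. Nfia, a nuclear factor I gene of neuronal and glial differentiation, was at 416, 430.0 and 400.4 CPM in WT, 618, 649, 691 and 569 in Het and 887, 837 and 885 in KO embryos. The 3 genotypes did not overlap (log2 fold change 0.61 ± 0.06, adjusted p = 0.000984 in Het, 1.07 ± 0.07, adjusted p = 2.93e-07 in KO, and 0.45, adjusted p = 0.0459, in Het with the prefix as a covariate), and within 1 prefix KO exceeded Het by 0.41 ± 0.05, adjusted p = 0.000267. Its relative Nfib was at 3299, 3011 and 3134 CPM in WT, 3593, 3562, 3664 and 3547 in Het and 3952, 3933 and 4276 in KO embryos, with KO above WT throughout (log2 fold change 0.36 ± 0.05, adjusted p = 0.000217).

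Bcl11b (CTIP2), the zinc-finger factor that specifies corticospinal neurons, was at 206, 272 and 211 CPM in WT, 257, 310.0, 319.8 and 303 in Het and 412, 447 and 450.4 in KO embryos. KO embryos were clear of both other groups, while WT2 overlapped with Het (log2 fold change 0.93 ± 0.10, adjusted p = 3.14e-05 against WT, and 0.56 ± 0.07, adjusted p = 0.000289 against Het within 1 prefix). Sox5, which controls the order in which deep-layer neurons are born, was at 195, 152 and 162 CPM in WT, 208, 172, 189 and 222 in Het and 292, 307 and 314 in KO embryos. WT and Het overlapped and KO lay above both (log2 fold change 0.84 ± 0.09, adjusted p = 4.27e-05 against WT, and 0.68 ± 0.06, adjusted p = 1.96e-05 within 1 prefix). Tbr1, a layer VI factor, was at 102 to 124 CPM in WT and 159.9 to 181 in KO embryos (log2 fold change 0.60 ± 0.10, adjusted p = 0.000977) but had a log2 fold change of 0.21, adjusted p = 0.419, with the prefix as a covariate. Fezf2, the layer V selector gene, was at 52.2 to 58.7 CPM in WT embryos, 51.6 to 71.0 in Het and 65.0 to 87.2 in KO embryos (log2 fold change 0.46 ± 0.12, adjusted p = 0.0124), and lost its call without KO1. Etv1, a layer V factor, was at 6.88 to 9.78 CPM in WT embryos, 5.15 to 10.3 in Het and 1.14 to 2.20 in KO embryos (log2 fold change -2.26 ± 0.32, adjusted p = 0.000256), and Thy1, a surface protein of mature projection neurons, was at 1.79 to 8.27 CPM in WT embryos, 2.11 to 4.36 in Het and 1.10 to 1.56 in KO embryos (log2 fold change -1.79 ± 0.49, adjusted p = 0.0178). The call of Thy1 was lost without WT2, KO2 or KO3, and its log2 fold change was -0.11, adjusted p = 0.935, without the neurons that carried UMIs of other cell types. Among the genes not called, the layer VI markers Tle4 and Foxp2 had log2 fold changes of -0.20 and 0.02, and the subcerebral neuron markers Ldb2 and Crym had -0.59 and -1.09. Of the 8 calls, 6 held with the library prefix as a covariate (Bcl11b, Fezf2, Sox5, Nfia, Nfib and Etv1), 7 without the neurons that carried UMIs of other cell types, and 6 held with any 1 embryo left out.

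The share of Unc5d-positive neurons with a Bcl11b UMI was counted from the same Bcl11b UMIs as the gene test above. In that test Bcl11b was not called in Het against WT. After thinning to 5000 UMIs the share was 47.5%, 49.9% and 46.6% in WT embryos, 58.5%, 59.8%, 61.6% and 62.8% in Het embryos and 77.4%, 76.0% and 78.2% in KO embryos. The 3 genotypes did not overlap. The means were 48.0% ± 1.69, 60.7% ± 1.90 and 77.2% ± 1.12 (SD), a Het excess over WT of 12.7 points (exact permutation p = 0.0571, adjusted 0.0857, the smallest possible for 3 against 4 embryos) and a KO excess over WT of 29.2 points (exact permutation p = 0.1, the smallest possible). Unthinned, the shares were 71.5%, 82.1% and 94.4%, and with at least 2 UMIs asked for they were 26.4%, 35.2% and 51.4%. Among erythroid cells 17.9% held a Bcl11b UMI (301 of 1679, exact 95% interval 16.1% to 19.8%, median 10343 UMIs unthinned), which free RNA can give. In Cdh12 Hs6st2 cells the thinned share was 19.7%, 23.6% and 50.7%, and in Eomes cells 28.3%, 29.8% and 38.6%, each in the order WT, Het and KO. This measure was chosen after the data had been seen.

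Without a prefix term, upper-layer identity genes fell or were not called. Of 15 tested, 6 were called lower in KO, with a median log2 fold change of -0.24. EdgeR called 0 higher, as did DESeq2, with 2 higher at an unadjusted p under 0.05. Mef2c, an activity-regulated factor of upper-layer neurons, was at 296, 352 and 271 CPM in WT, 189, 149.8, 188 and 245 in Het and 177, 203 and 174 in KO embryos. KO and 3 of the 4 Het embryos lay near each other below WT, and Het4 lay between (log2 fold change -0.66 ± 0.12, adjusted p = 0.0286 in Het, a call lost without any 1 of 7 embryos, and -0.73 ± 0.13, adjusted p = 0.00179 in KO). With the prefix as a covariate the KO value was -0.25, adjusted p = 0.499, and the Het value -0.32, adjusted p = 0.599. Within 1 prefix Mef2c differed by 0.06 ± 0.08, adjusted p = 0.758, between KO and Het. Rorb, the layer IV factor, was at 37.4, 50.8 and 27.4 CPM in WT, 22.7, 22.4, 29.5 and 31.6 in Het and 20.9, 21.7 and 16.4 in KO embryos, with KO below WT in every embryo (log2 fold change -0.98 ± 0.19, adjusted p = 0.00229).

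Pou3f2 was at 829 to 999 CPM in WT embryos, 781 to 908 in Het and 629 to 781 in KO embryos (log2 fold change -0.37 ± 0.08, adjusted p = 0.00618), and Hs6st2, a heparan sulfate sulfotransferase gene of settled upper-layer neurons, at 184 to 243 CPM in WT embryos, 178 to 216 in Het and 137 to 152 in KO embryos (log2 fold change -0.60 ± 0.09, adjusted p = 0.000482, and -0.46 ± 0.07, adjusted p = 0.00125 within 1 prefix). Lmo4, a LIM-only cofactor, and Ptn, a secreted growth factor, completed the 6. The related factors Cux1, Cux2, Pou3f1, Pou3f3 and Lhx2 had log2 fold changes of -0.02, 0.25, -0.21, 0.05 and 0.19 and were not called. Of the 6 calls, 0 held with the library prefix as a covariate, 6 without the neurons that carried UMIs of other cell types, and 4 held with any 1 embryo left out, with Lmo4 and Ptn losing it. In the fit with the prefix term, edgeR called 1 of the 15 higher and 0 lower. At an unadjusted p under 0.05, 1 was higher and 5 were lower in that fit. KO was below Het within 1 prefix with a call for Hs6st2 and Lmo4.

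**Figure D3:**
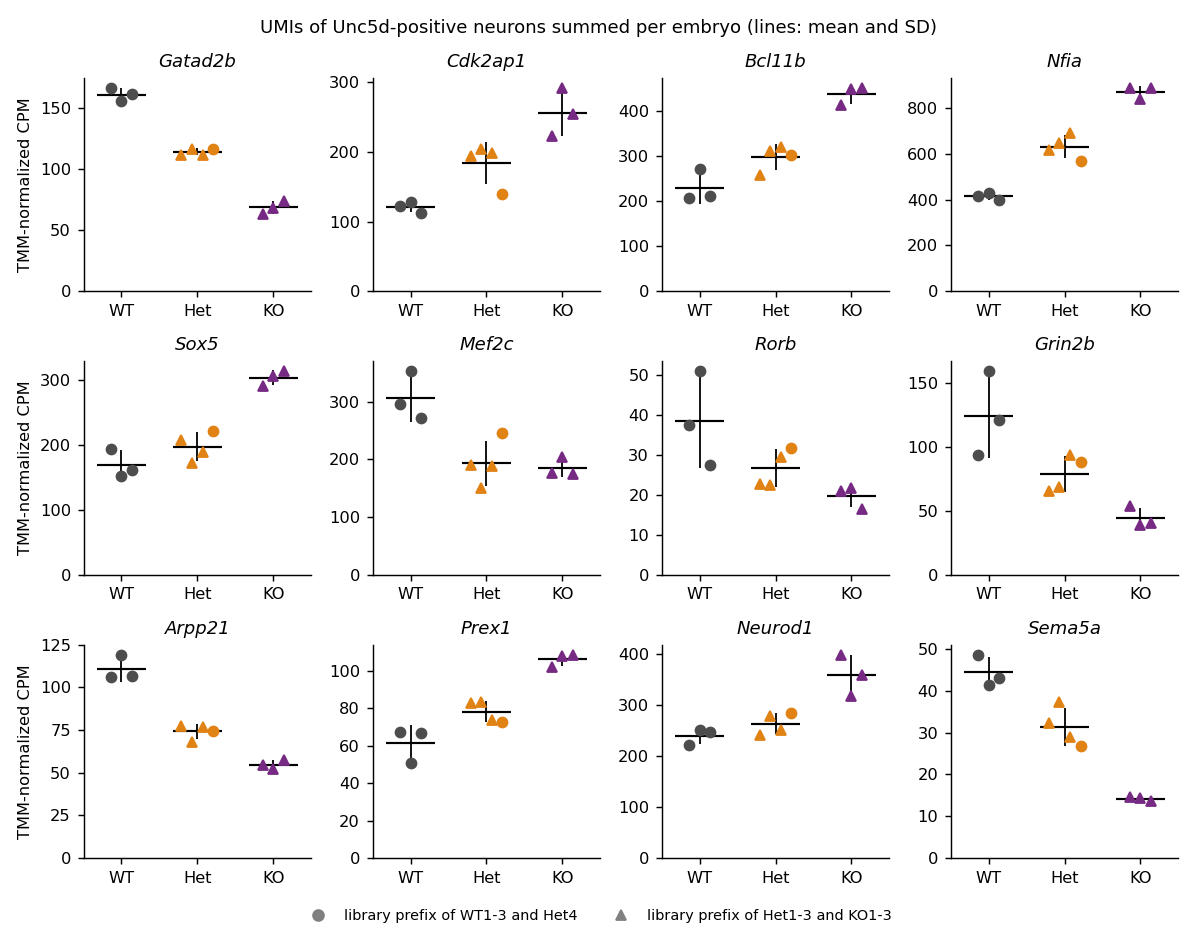
TMM-normalized CPM per embryo of 12 genes in Unc5d-positive neurons, with lines for mean and SD (3 WT, 4 Het, 3 KO embryos) and symbols for the library prefix. Gatad2b, Arpp21 and Sema5a fall, and Nfia rises, in steps from WT through Het to KO. Cdk2ap1 is higher in KO than in WT, with Het1 to Het3 between, while Het4, which has the WT prefix, lies just above WT. Mef2c is as low in Het1 to Het3 as in KO.

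Of 23 genes of progenitors and early differentiation tested, 9 were called higher in KO, with a median of 0.16. EdgeR and DESeq2 called 0 lower, and 2 were lower at an unadjusted p under 0.05. With the library prefix as a covariate, edgeR called 1 lower, and 4 were lower at that unadjusted p. Gadd45g, a stress and growth-arrest gene switched on in newborn neurons, was at 15.2, 16.8 and 17.1 CPM in WT, 33.9, 29.9, 24.0 and 21.6 in Het and 44.6, 42.2 and 37.3 in KO embryos. The 3 genotypes formed steps without overlap (log2 fold change 0.75 ± 0.14, adjusted p = 0.0322 in Het, a call lost without any 1 of 7 embryos, and 1.34 ± 0.14, adjusted p = 3.32e-05 in KO). Mfng, a glycosyltransferase that modifies Notch receptors, was at 22.7, 18.3 and 24.3 CPM in WT, 23.4, 28.3, 22.1 and 25.8 in Het and 41.9, 38.7 and 36.2 in KO embryos, with KO above all other embryos (log2 fold change 0.84 ± 0.11, adjusted p = 0.000130).

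Vim, the intermediate filament gene of radial glia, was at 58.4, 60.5 and 67.0 CPM in WT, 78.5, 101, 89.0 and 101 in Het and 109, 85.1 and 95.7 in KO embryos. Het and KO embryos overlapped, both above WT (log2 fold change 0.57 ± 0.10, adjusted p = 0.0259 in Het, a call lost without any 1 of 5 embryos, and 0.65 ± 0.11, adjusted p = 0.000831 in KO). Insm1 was at 187 to 221 CPM in WT embryos, 217 to 268 in Het and 277 to 294 in KO embryos (log2 fold change 0.50 ± 0.08, adjusted p = 0.000495), and Btg2, an antiproliferative gene of neurogenic divisions, at 31.1 to 39.0 CPM in WT embryos, 36.6 to 53.9 in Het and 49.9 to 53.8 in KO embryos (log2 fold change 0.55 ± 0.12, adjusted p = 0.00410). Sox11, a neuronal SoxC factor, and the neuronal RNA-binding protein genes Elavl2 and Elavl4 were higher by 0.32, 0.27 and 0.30 on the log2 scale, and the Notch ligand gene Dll1 by 0.82. Defining progenitor genes did not pass the test, with log2 fold changes of -0.09 for Sox2, -0.39 for Pax6, -0.17 for Neurog2 and -1.45 for Hes1. The summed level of 10 radial glia markers was 338 to 393 CPM in WT embryos, 375 to 631 in Het and 319 to 389 in KO embryos. Of the 9 calls, 3 held with the library prefix as a covariate (Gadd45g, Mfng and Vim), 9 without the neurons that carried UMIs of other cell types, and 6 held with any 1 embryo left out.

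Calls among radial migration genes went in both directions. The higher ones included the transcription factor genes Zbtb18, Neurod1 and Neurod6. The lower ones included Vldlr and Dab1 of the Reelin pathway, of which Lrp8 was not called. Of 29 tested, 6 were called higher in KO and 4 lower, with a median of -0.04. Prex1, a Rac exchange factor of migrating neurons, was at 67.0, 50.5 and 66.6 CPM in WT, 82.9, 83.1, 73.8 and 72.8 in Het and 102, 108 and 108 in KO embryos. KO lay above Het, and Het above WT, without overlap (log2 fold change 0.79 ± 0.09, adjusted p = 7.64e-05 against WT, and 0.40 ± 0.06, adjusted p = 0.00142 against Het within 1 prefix). Tiam2, another Rac exchange factor, was at 136, 108 and 117 CPM in WT, 139, 113, 127 and 157 in Het and 190.3, 167 and 191 in KO embryos, with KO above both other groups (log2 fold change 0.60 ± 0.11, adjusted p = 0.00146). Neurod1 was at 221, 252 and 247 CPM in WT, 242, 278, 251 and 285 in Het and 399, 318 and 360.0 in KO embryos, with every KO embryo above all others (log2 fold change 0.58 ± 0.08, adjusted p = 0.000322, and 0.48 ± 0.07, adjusted p = 0.00154 within 1 prefix).

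Dpy19l1, a mannosyltransferase gene needed for radial migration, was at 201 to 243 CPM in WT embryos, 229 to 264 in Het and 279 to 304 in KO embryos (log2 fold change 0.40 ± 0.07, adjusted p = 0.00172). Zbtb18 (RP58), a repressor that shuts down Rnd2 and Neurog2 as neurons mature, was at 906 to 1091 CPM in WT embryos, 1129 to 1302 in Het and 1328 to 1478 in KO embryos (log2 fold change 0.47 ± 0.07, adjusted p = 0.000635). Vldlr, a Reelin receptor gene, was at 36.2, 35.4 and 34.7 CPM in WT, 26.2, 27.5, 29.1 and 27.0 in Het and 21.4, 24.7 and 23.1 in KO embryos, and Het and KO both lay below WT (log2 fold change -0.37 ± 0.07, adjusted p = 0.0305 in Het, a call lost without any 1 of 6 embryos, and -0.62 ± 0.08, adjusted p = 8.28e-05 in KO). Dab1, its intracellular adaptor, fell by less (log2 fold change -0.28 ± 0.07, adjusted p = 0.0155) and lost the call without KO1. Dab1 also lost it without the neurons that carried UMIs of other cell types (-0.21, adjusted p = 0.158). Tiam1 and Cdh11, a Rac exchange factor and a cadherin gene, had log2 fold changes of -0.63 ± 0.09, adjusted p = 0.000403, and -0.89 ± 0.15, adjusted p = 0.00131. Dcx and Dclk1, the doublecortins, had log2 fold changes of 0.21 and -0.20, short of the size required, and Pafah1b1 (LIS1), Ndel1 and Lrp8 were not called. Of the 10 calls, 5 held with the library prefix as a covariate (Vldlr, Tiam2, Neurod1, Neurod6 and Prex1), 8 without the neurons that carried UMIs of other cell types, and 8 held with any 1 embryo left out.

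In the family of Unc5d itself, the netrin receptor and FLRT genes, 3 of 13 tested were called higher in KO and 4 lower, with a median of -0.11. Flrt3, an FLRT gene, was at 89.3, 74.2 and 73.8 CPM in WT, 89.6, 63.3, 73.9 and 84.9 in Het and 128, 105 and 128 in KO embryos. KO lay above WT and Het, which overlapped (log2 fold change 0.60 ± 0.12, adjusted p = 0.00257 against WT, and 0.65 ± 0.10, adjusted p = 0.00170 within 1 prefix). Flrt2, which encodes a repulsive ligand of Unc5d, was at 57.9, 58.2 and 56.9 CPM in WT, 45.0, 49.3, 42.5 and 47.5 in Het and 43.4, 39.4 and 42.3 in KO embryos, below every WT embryo in all mutants (log2 fold change -0.33 ± 0.06, adjusted p = 0.0358 in Het, a call lost without any 1 of 8 embryos, and -0.47 ± 0.07, adjusted p = 0.000337 in KO). The related Flrt1 was at 44.5 to 55.4 CPM in WT embryos, 48.0 to 67.2 in Het and 65.0 to 80.2 in KO embryos (log2 fold change 0.49 ± 0.12, adjusted p = 0.00956), a call lost without KO1.

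Unc5c, a paralog of Unc5d, was at 8.96 to 17.3 CPM in WT embryos, 6.47 to 8.67 in Het and 4.98 to 5.22 in KO embryos, with KO below both other groups (log2 fold change -1.29 ± 0.21, adjusted p = 0.000879). Adgrl3 (latrophilin 3), an FLRT-binding adhesion receptor gene, was at 101, 117 and 108 CPM in WT, 94.3, 95.4, 101 and 82.5 in Het and 68.2, 54.8 and 60.1 in KO embryos, and KO lay below all Het embryos (log2 fold change -0.83 ± 0.09, adjusted p = 3.67e-05, and -0.67 ± 0.07, adjusted p = 8.24e-05 within 1 prefix). Draxin, a secreted axon repellent gene that binds netrin and Dcc, was at 82.3 to 88.6 CPM in WT embryos, 75.1 to 77.9 in Het and 58.0 to 66.1 in KO embryos (log2 fold change -0.46 ± 0.06, adjusted p = 0.000259). Unc5a, Unc5b, Dcc, Neo1, Adgrl1 and Adgrl2 were not called. Of the 7 calls, 3 held with the library prefix as a covariate (Flrt1, Adgrl3 and Draxin), 6 without the neurons that carried UMIs of other cell types, and 5 held with any 1 embryo left out, Dscam being the second that did not.

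Of 19 semaphorin, plexin and neuropilin genes tested, 3 were called higher in KO and 1 lower, with a median of 0.10. The lower gene was Sema5a, a transmembrane semaphorin gene, at 48.6, 41.5 and 43.2 CPM in WT, 32.4, 37.4, 29.0 and 26.7 in Het and 14.5, 14.5 and 13.6 in KO embryos. The 3 genotypes formed steps without overlap (log2 fold change -0.52 ± 0.10, adjusted p = 0.0286 in Het, a call lost without any 1 of 7 embryos, -1.65 ± 0.11, adjusted p = 6.85e-07 in KO, and -1.21 ± 0.10, adjusted p = 1.02e-05 for KO against Het within 1 prefix). Plxnb2, a plexin gene, was at 40.8 to 44.3 CPM in WT and 53.9 to 57.1 in KO embryos (log2 fold change 0.36 ± 0.08, adjusted p = 0.00444). Sema6c and Sema6d were higher by 0.30 and 0.35 on the log2 scale, calls lost on leaving out several single embryos. Of the 4 calls, 2 held with the library prefix as a covariate (Sema5a and Sema6d), 2 without the neurons that carried UMIs of other cell types, and 2 held with any 1 embryo left out.

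Among cytoskeletal genes the called actin genes were higher and the called tubulin and tau genes lower. Of 22 tested, 4 were called higher in KO and 4 lower, with a median of 0.02. Actb, the beta-actin gene, was at 4838, 5019.6 and 5204 CPM in WT, 6334, 6117, 6502 and 5380.3 in Het and 7017, 7053 and 7108 in KO embryos, with Het between WT and KO (log2 fold change 0.28 ± 0.06, adjusted p = 0.0393 in Het, a call lost without any 1 of 9 embryos, and 0.49 ± 0.06, adjusted p = 0.000101 in KO). Mapt, which encodes tau, was at 538, 773 and 683 CPM in WT, 383, 395, 497 and 512 in Het and 364, 328 and 349.5 in KO embryos, and all mutant embryos were below WT (log2 fold change -0.57 ± 0.11, adjusted p = 0.0371 in Het, a call lost without any 1 of 8 embryos, and -0.94 ± 0.12, adjusted p = 0.000171 in KO). Dpysl2 (CRMP2), which binds tubulin in growth cones, was higher (log2 fold change 0.52 ± 0.10, adjusted p = 0.00225), as were Actg1 and Basp1. The tubulin genes Tubb2a and Tubb3 and the stathmin gene Stmn4 had log2 fold changes of -0.59, -0.25 and -0.30, all calls lost without WT2. Of the 8 calls, 1 held with the library prefix as a covariate (Actb), 6 without the neurons that carried UMIs of other cell types, and 3 held with any 1 embryo left out.

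Cell adhesion genes were mostly lower where they changed. Of 39 tested, 3 were called higher in KO and 12 lower, with a median of -0.11. Ephb1, an ephrin receptor gene, was at 36.4, 36.1 and 30.5 CPM in WT, 23.5, 21.5, 20.7 and 19.6 in Het and 20.7, 17.5 and 16.0 in KO embryos, with all mutants below WT (log2 fold change -0.69 ± 0.10, adjusted p = 0.0133 in Het, and -0.93 ± 0.11, adjusted p = 5.80e-05 in KO). The ephrin ligand gene Efnb2 moved the other way, at 244, 220.3 and 214 CPM in WT, 256, 239, 265 and 262 in Het and 306, 338 and 359 in KO embryos, with KO above all others (log2 fold change 0.56 ± 0.07, adjusted p = 7.91e-05, and 0.40 ± 0.06, adjusted p = 0.00154 within 1 prefix). Cdh10, a cadherin gene, was at 56.2 to 64.2 CPM in WT embryos, 46.4 to 60.9 in Het and 33.2 to 42.2 in KO embryos (log2 fold change -0.66 ± 0.10, adjusted p = 0.000570), Nectin3, whose product joins migrating neurons to Cajal-Retzius cells, at 30.0 to 32.4 CPM in WT embryos, 24.3 to 31.5 in Het and 17.0 to 21.8 in KO embryos (log2 fold change -0.72 ± 0.11, adjusted p = 0.000600), and Cadm2 at 97.0 to 108 CPM in WT embryos, 86.3 to 93.6 in Het and 61.5 to 77.7 in KO embryos (log2 fold change -0.52 ± 0.08, adjusted p = 0.000536).

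The synaptic adhesion genes Lrrtm2 (-0.44 ± 0.11, adjusted p = 0.00914), Nlgn1, Nlgn3 and Nrxn3 were also lower. Cntnap2, Pcdh19, Epha4 and Epha7 completed the lower genes, and Efnb1 and Robo2 the higher ones. The L1 family genes L1cam, Nrcam, Nfasc and Chl1 were not called, at 0.24, 0.10, 0.04 and -0.01. Of the 15 calls, 2 held with the library prefix as a covariate (Ephb1 and Efnb2), 10 without the neurons that carried UMIs of other cell types, and 6 held with any 1 embryo left out (Cadm2, Cdh10, Nectin3, Ephb1, Efnb2 and Lrrtm2). The 5 calls lost without the neurons that carried UMIs of other cell types kept their direction there, with log2 fold changes of -0.20 for Pcdh19, 0.21 for Efnb1, 0.23 for Robo2, -0.34 for Nlgn3 and -0.98 for Nrxn3.

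Among the 11 gene lists plotted below, markers of other cell types aside, synapse and excitability genes had the lowest median, -0.31 against -0.01 over all genes. Of 33 tested, 1 was called higher in KO and 14 lower. Grin2b, the NMDA receptor subunit of immature neurons, was at 93.6, 159 and 121 CPM in WT, 65.9, 68.6, 94.1 and 88.0 in Het and 53.6, 39.0 and 40.2 in KO embryos. KO lay below all other embryos, and Het3 reached the level of WT1 (log2 fold change -1.49 ± 0.18, adjusted p = 8.25e-05 against WT, and -0.78 ± 0.13, adjusted p = 0.00205 against Het within 1 prefix). Grin2a and Grin1, other NMDA receptor subunits, were at 2.97 to 7.56 CPM in WT and 0.657 to 1.83 in KO embryos for Grin2a and at 6.84 to 10.6 CPM in WT and 4.56 to 4.82 in KO embryos for Grin1 (-2.26 ± 0.42, adjusted p = 0.00213, and -0.83 ± 0.20, adjusted p = 0.00922).

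Arpp21, an RNA-binding protein gene of upper-layer neurons, was at 106, 119 and 107 CPM in WT, 77.5, 68.1, 77.0 and 74.4 in Het and 54.6, 52.4 and 57.4 in KO embryos. The 3 genotypes did not overlap, and each Het embryo lay between (log2 fold change -0.57 ± 0.07, adjusted p = 0.000984 in Het, and -1.01 ± 0.07, adjusted p = 8.69e-07 in KO). The AMPA receptor genes Gria1 and Gria2 had log2 fold changes of -0.63 ± 0.12, adjusted p = 0.00265, and -0.46 ± 0.08, adjusted p = 0.00135. Kcnq3, a potassium channel gene, had a log2 fold change of -0.31. Vesicle and transporter genes were not called, with log2 fold changes of -0.12 for Snap25, -0.31 for Syt1, -0.01 for Slc17a6 and -0.05 for Slc17a7. Of the 15 calls, 2 held with the library prefix as a covariate (Grin2b and Arpp21), 7 without the neurons that carried UMIs of other cell types, and 7 held with any 1 embryo left out. The 8 calls lost without the neurons that carried UMIs of other cell types kept their direction there, with log2 fold changes from -0.76 (Grin1) to 0.30, of which 7 were closer to 0 than before.

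Around Sstr2, a receptor that lowers cAMP, 19 further somatostatin receptor and cAMP pathway genes were tested, of which 2 were called higher in KO and 4 lower, with a median of -0.04. Sstr3 was at 2.61, 1.85 and 1.79 CPM in WT, 2.97, 2.97, 3.51 and 5.16 in Het and 7.88, 6.68 and 8.24 in KO embryos, low everywhere and highest in KO (log2 fold change 1.84 ± 0.26, adjusted p = 0.000248). Pde4b, a cAMP phosphodiesterase gene, was at 6.88, 9.27 and 6.68 CPM in WT, 7.82, 6.65, 8.44 and 9.85 in Het and 13.2, 14.7 and 16.7 in KO embryos, with KO above all other embryos (log2 fold change 0.97 ± 0.17, adjusted p = 0.00118). Prkar1b, a regulatory subunit of protein kinase A, was at 42.0, 53.5 and 45.6 CPM in WT, 41.9, 40.8, 42.9 and 31.5 in Het and 26.8, 25.6 and 30.7 in KO embryos (log2 fold change -0.76 ± 0.12, adjusted p = 0.000554), below all other embryos in KO. Adcy3, Prkar2b and Pde1a were lower with calls lost on leaving out WT2 among others. Of the 6 calls, 3 held with the library prefix as a covariate (Sstr3, Prkar1b and Pde4b), 3 without the neurons that carried UMIs of other cell types, and 3 held with any 1 embryo left out.

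**Figure D4:**
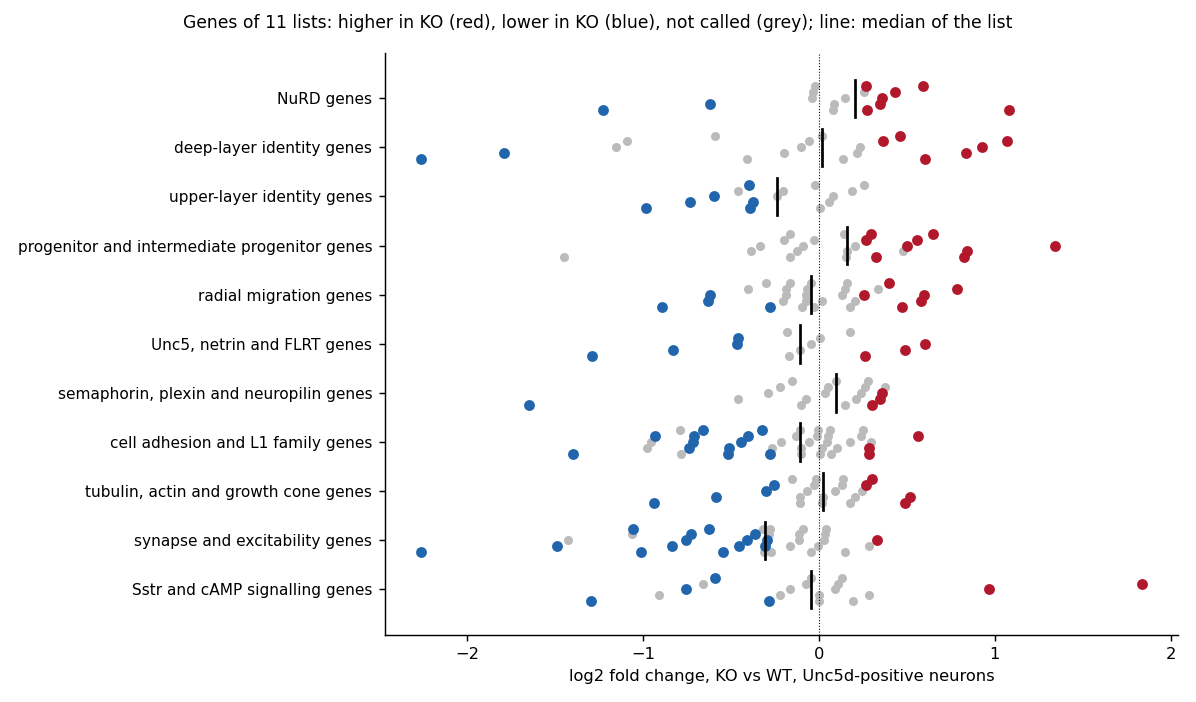
Log2 fold change of KO against WT in Unc5d-positive neurons for the tested genes of 11 lists (1 point per gene, red called higher, blue called lower, grey not called), with a black line at the median of each list. Synapse and excitability genes have the lowest median of the 11 (-0.31), with 14 of 33 called lower. The highest medians are those of NuRD genes (0.20) and of genes of progenitors and early differentiation (0.16). In the latter list Sox2, Pax6, Neurog2 and Hes1 had negative values and were not called.

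Of 18 genes that the study names for these embryos, 8 were called higher in KO and 7 lower in Unc5d-positive neurons. The study chose them on these same samples, so the count is no independent evidence of direction. Beside those given above, Cdkn1c (p57), a cell-cycle inhibitor gene, was at 135, 142 and 108 CPM in WT, 129, 141, 128 and 158 in Het and 184, 198 and 201 in KO embryos (log2 fold change 0.60 ± 0.09, adjusted p = 0.000600), with KO above all others. The linker histone gene H1f0 and the histone variant gene H3f3b were at 206 to 251 CPM in WT embryos, 259 to 289 in Het and 310.1 to 337 in KO embryos for H1f0 and at 3338 to 3573 CPM in WT embryos, 3910.3 to 4551 in Het and 4787 to 5149 in KO embryos for H3f3b (0.52 ± 0.07, adjusted p = 0.000187, and 0.51 ± 0.06, adjusted p = 5.80e-05). Ptprd, a receptor phosphatase gene, and Frmd4a had log2 fold changes of -0.33 and -0.33. Robo1, Chl1 and Mki67 were not called. Of the 15 calls, 9 held with the library prefix as a covariate (H3f3b, Nfia, Sox5, Arpp21, Grin2b, Cdkn1c, Bcl11b, Cdk2ap1 and H1f0), 15 without the neurons that carried UMIs of other cell types, and 13 held with any 1 embryo left out.

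Of the 10 called genes with the largest increase in KO against WT, most were low in WT, which follows in part from choosing by fold among genes that reached 10 CPM in either group. Ldb3, a PDZ and LIM domain gene of muscle, was at 0.830, 0.428 and 0.978 CPM in WT, 3.17, 2.10, 2.67 and 3.52 in Het and 14.3, 12.3 and 12.7 in KO embryos (log2 fold change 4.12 ± 0.26, adjusted p = 3.80e-07). Het embryos lay between, without overlap on either side. Tspo2, a translocator protein gene of erythroid cells, was at 2.14, 1.85 and 3.58 CPM in WT, 7.52, 4.02, 5.06 and 5.51 in Het and 16.49, 19.5 and 18.3 in KO embryos (log2 fold change 2.87 ± 0.23, adjusted p = 2.75e-06), and Ucp2, a mitochondrial carrier gene, at 2.61 to 4.07 CPM in WT embryos, 2.93 to 6.47 in Het and 13.1 to 15.0 in KO embryos (log2 fold change 2.04 ± 0.24, adjusted p = 5.80e-05). Nhlh1, a basic helix-loop-helix factor of newborn neurons, was at 9.25, 6.99 and 6.19 CPM in WT, 9.89, 10.8, 10.1 and 12.3 in Het and 24.5, 22.7 and 22.5 in KO embryos, with KO above all others (log2 fold change 1.61 ± 0.14, adjusted p = 4.63e-06). Ttc39b, Sypl2, Lgals7, Necab3 and Nkd1, a Wnt antagonist gene, were higher by 1.47 to 1.77 on the log2 scale.

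The immediate early gene Fos was at 35.9, 25.1 and 31.3 CPM in WT, 93.5, 113, 109 and 27.9 in Het and 91.1, 87.7 and 119.5 in KO embryos. Het4 sat with WT and Het1 to Het3 with KO, so Fos followed the library prefix. Its KO against WT value of 1.69 ± 0.35, adjusted p = 0.00400 became -0.22, adjusted p = 0.713, with the prefix as a covariate, and KO differed from Het1 to Het3 by -0.07 ± 0.10, adjusted p = 0.783. Apart from Fos and Ucp2, the other 8 of these 10 higher genes held their call with the prefix as a covariate.

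Of the 10 called genes with the largest decrease in KO against WT, 6 were well above the other embryos in 1 WT embryo, and 4 of these 6 are markers of other cell types. Ttr, a choroid plexus gene, had 358, 16 and 14 UMIs in WT1 to WT3 and none in any Het or KO embryo. Against a floor of 3 UMIs over the 3 KO embryos it was at least 185.4-fold lower, or at least 23.58-fold lower without WT1. Cldn5, Sparc and Col4a1, endothelial or mural genes, were highest in WT3, at 1.28 to 34.1 CPM in WT embryos, 0.396 to 1.41 in Het and 0.458 to 0.726 in KO embryos for Cldn5. Its call was lost without WT3. Nts, a neuropeptide gene, was highest in WT2 (2.49, 44.8 and 3.91 CPM in WT, 20.6, 19.6, 12.7 and 0.938 in Het and 0.104, 0.438 and 0.0915 in KO embryos), and its call in KO against WT was lost without that embryo. Gabra5 was also highest in WT2. The calls of Ttr, Sparc, Col4a1 and Gabra5 held with any 1 embryo left out. With the prefix as a covariate 5 of these 10 lower genes held their call (Nts, Adamts2, Npy, Tcf7l2 and Kif26b). Those of Ttr, Sparc, Col4a1, Gabra5 and Cldn5 were lost in that fit. Without the neurons that carried UMIs of other cell types, Col4a1 had a log2 fold change of -0.62, adjusted p = 0.403.

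Other lowered genes were even across WT embryos. Adamts2, a procollagen protease gene, was at 17.6, 10.6 and 15.8 CPM in WT, 12.4, 9.80, 9.56 and 10.1 in Het and 1.97, 0.767 and 2.38 in KO embryos (log2 fold change -3.06 ± 0.28, adjusted p = 8.85e-06, and -2.61 ± 0.27, adjusted p = 5.43e-05 within 1 prefix). Tcf7l2, a transcription factor of the Wnt pathway, was at 29.7, 18.8 and 22.2 CPM in WT, 11.5, 17.1, 19.0 and 17.8 in Het and 3.94, 1.64 and 3.93 in KO embryos (log2 fold change -2.88 ± 0.26, adjusted p = 9.53e-06, and -2.28 ± 0.26, adjusted p = 0.000110 within 1 prefix). For both, Het overlapped with WT and every KO embryo lay far below. Kif26b, a kinesin family gene, was at 11.6, 13.0 and 7.33 CPM in WT, 3.96, 3.32, 4.50 and 5.74 in Het and 2.18, 2.19 and 1.37 in KO embryos (log2 fold change -2.49 ± 0.27, adjusted p = 4.04e-05), with Het between WT and KO. Npy, an interneuron marker, was at 15.3, 21.7 and 22.3 CPM in WT, 32.8, 24.5, 9.70 and 23.4 in Het and 3.01, 3.40 and 1.56 in KO embryos, with all KO embryos below all others (log2 fold change -2.90 ± 0.40, adjusted p = 0.000211).

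In Het against WT, 47 genes were called higher (0.379% of those tested) and 44 lower (0.355%). The 10 largest increases included Nhlh2, a relative of Nhlh1, at 24.6, 27.2 and 26.9 CPM in WT, 53.8, 55.5, 54.3 and 44.5 in Het and 82.6, 61.7 and 69.5 in KO embryos. Every Het embryo lay above every WT embryo (log2 fold change 0.99 ± 0.11, adjusted p = 0.000984). Ifitm2, a membrane protein gene induced by interferon, was at 36.7, 50.5 and 54.6 CPM in WT, 83.1, 83.6, 90.3 and 68.9 in Het and 128, 109 and 127 in KO embryos (log2 fold change 0.79 ± 0.12, adjusted p = 0.0135), and Insig1, a regulator of sterol synthesis, at 25.7, 27.4 and 21.7 CPM in WT, 42.1, 38.8, 42.6 and 35.4 in Het and 51.7, 54.0 and 54.5 in KO embryos (log2 fold change 0.67 ± 0.09, adjusted p = 0.00464). In both, Het lay above WT and KO above Het.

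The other 7 increases were AC149090.1, the histone gene Hist1h1e, Ttc39b, Gadd45g, the cation exchanger gene Slc24a5, Shisa2 and Lgals7. The calls of Nhlh2, Ifitm2 and Insig1 held with any 1 embryo left out, whereas those of the other 7 were lost without 1 or more. Slc24a5 was at 157, 157 and 166 CPM in WT, 299.5, 293, 306 and 176 in Het and 305, 350.0 and 319.7 in KO embryos, with Het4 next to WT, and Hist1h1e at 118, 84.1 and 89.6 CPM in WT, 216, 238, 197 and 121 in Het and 222, 241 and 220.2 in KO embryos, with Het4 next to WT1. Of the 10 largest decreases, Arpp21 and Ephb1 held in the same way, and Kif26b, Tshz2, Apoe, Mef2c, Rab26os, Rgma, Ptprt and Gucy1a1 did not. With the prefix as a covariate edgeR called 0 of the 20, of which 18 had an unadjusted p under 0.05. In that fit Het4 alone separates genotype from prefix.

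Several Het changes were close in size to the KO changes. The log2 fold change of Mef2c was -0.66 in Het and -0.73 in KO, that of Vim 0.57 and 0.65, and that of Rab26os -0.66 and -0.77. With the prefix as a covariate the KO value of Rab26os was -0.47, adjusted p = 0.325, and that of Vim 0.83, adjusted p = 0.0140, and edgeR called none of the 3 in Het. Others were larger in KO, such as Ephb1 (-0.69 and -0.93), Arpp21 (-0.57 and -1.01) and Nfia (0.61 and 1.07). Both contrasts share the WT embryos, so their likeness is given as values only.

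In KO against Het, 203 genes were called higher (1.64%) and 176 lower (1.42%). Sez6l, a neuronal membrane protein gene, was at 18.9, 21.4 and 16.46 CPM in WT, 24.4, 21.5, 24.9 and 25.0 in Het and 54.1, 49.0 and 53.6 in KO embryos. KO embryos lay above all Het embryos, and Het above WT, without overlap (log2 fold change 1.12 ± 0.08, adjusted p = 7.35e-06, and 1.13 ± 0.08, adjusted p = 1.47e-06 within 1 prefix). Glipr2 was at 3.99 to 5.05 CPM in WT embryos, 5.04 to 6.19 in Het and 10.6 to 12.6 in KO embryos (log2 fold change 1.04 ± 0.14, adjusted p = 0.00115), and Ldb3, Ucp2, Tspo2, Nkd1, Nhlh1, Necab3, Lgals7 and Sypl2 completed the 10 largest increases. All 10 held with any 1 embryo left out. Of the 10 largest decreases, Bpgm, a red-cell metabolism gene, was at 33.0, 38.8 and 42.2 CPM in WT, 37.4, 37.6, 33.0 and 28.8 in Het and 15.1, 18.0 and 16.9 in KO embryos (log2 fold change -1.03 ± 0.11, adjusted p = 0.000144), in embryos whose erythroid sums are given above, and the part of red-cell RNA in it was not tested. Calb2, the calretinin gene, was at 31.3, 48.2 and 49.0 CPM in WT, 42.8, 40.6, 49.9 and 27.5 in Het and 18.5, 14.4 and 25.7 in KO embryos (log2 fold change -1.02 ± 0.21, adjusted p = 0.0157), a call lost without KO1 or KO2. Nts, Npy, Adamts2, Tcf7l2, Sema5a, Spock1, Tmem106c and March1 were the others, of which Nts and Spock1 lost the call without 1 embryo or another. All 20 calls held within 1 prefix.

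Whether the effect of KO in Unc5d-positive neurons differed from that in neighbouring groups was tested as an interaction over embryos. Against Cdh12 Hs6st2 cells, the KO effect differed for 670 of 13267 genes (5.05%), and against Eomes cells for 363 of 13176 (2.76%). Hs6st2, which chose the former cells, was lower in KO in Unc5d-positive neurons. The make-up of the chosen cells may therefore differ between KO and WT, which was not tested. For the loss of 1 allele, 7 genes (0.0528%) differed against Cdh12 Hs6st2 cells and edgeR called 0 against Eomes cells, where 844 had an unadjusted p under 0.05. With a term for prefix in each cell group the KO counts were 179 and 23, and 9 of the 22 differences given below that passed the test held (those of Nfib, Ldb2, Gria1, Ephb1, Cdh8, Lrrn3, Plppr4, Nkd1 and Sema5a). Those of Bcl11b, Grin2b, Flrt3 and Neurod1 were lost on leaving out 1 KO embryo or another, and the last 3 also on leaving out WT3, and that of Grin2b on leaving out WT2.

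Of the 19 deep-layer identity genes, the KO effect differed between Unc5d-positive neurons and Cdh12 Hs6st2 cells for 7, each with the lower value in Unc5d-positive neurons. The median difference over the 19 was -0.67 on the log2 scale, and with the prefix term 2 of the 7 held (Nfib and Ldb2). The log2 fold change of Bcl11b was 0.93 in the Unc5d-positive neurons against 1.36 (difference -0.43 ± 0.09, adjusted p = 0.0108). Sox5 was at 0.84 against 1.29 (difference -0.45 ± 0.08, adjusted p = 0.00235), Fezf2 at 0.46 against 1.53 (difference -1.08 ± 0.14, adjusted p = 0.000147) and Nfib at 0.36 against 1.04 (difference -0.68 ± 0.05, adjusted p = 1.43e-06). Ldb2 was at -0.59 against 0.62 (difference -1.21 ± 0.20, adjusted p = 0.00156). Etv1 was at -2.26 against -0.72 (difference -1.50 ± 0.41, adjusted p = 0.0422) and Nxph4, a neurexophilin gene, at 0.14 against 0.85 (difference -0.72 ± 0.20, adjusted p = 0.0479), differences lost without several single embryos. Tbr1 and Nfia did not pass this test, at 0.60 against 0.62 (difference -0.02 ± 0.11, adjusted p = 0.953) and 1.07 against 0.99 (difference 0.07 ± 0.08, adjusted p = 0.710). Against Eomes cells, the effect on Tbr1 was 0.60 in the Unc5d-positive neurons against 0.06 (difference 0.55 ± 0.09, adjusted p = 0.00692), and that on Nfia 1.07 against 0.46 (difference 0.62 ± 0.08, adjusted p = 0.00135). Flrt3 was at 0.60 against 0.02 (difference 0.61 ± 0.12, adjusted p = 0.0172). Neurod1 was at 0.58 against 0.13 (difference 0.45 ± 0.09, adjusted p = 0.0152), and Dpy19l1 at 0.40 against -0.02 (difference 0.43 ± 0.08, adjusted p = 0.00978).

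Of 33 synapse and excitability genes, the KO effect relative to Cdh12 Hs6st2 cells was lower in Unc5d-positive neurons for 6 and higher for 2. With the prefix term it was lower for 3 of the 33 and higher for 1. Grin2b was at -1.49 in the Unc5d-positive neurons against -0.84 (difference -0.63 ± 0.15, adjusted p = 0.0205), and Gria1 at -0.63 against 0.48 (difference -1.11 ± 0.11, adjusted p = 2.50e-05). Ephb1 had effects of opposite sign, at -0.93 against 0.32 (difference -1.26 ± 0.11, adjusted p = 7.12e-06). Sema5a was at -1.65 against 0.53 (difference -2.16 ± 0.12, adjusted p = 3.86e-07) in the contrast with Eomes cells. Cux2 also had effects of opposite sign, at 0.25 against -0.27 (difference 0.52 ± 0.08, adjusted p = 0.00113) against Cdh12 Hs6st2 cells, although its change in Unc5d-positive neurons did not pass the test on its own.

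By size alone, the KO effects that were most positive in Unc5d-positive neurons relative to Cdh12 Hs6st2 cells were those of Cxxc4, Ptprk, Lrrn3, Cdh8 and Pard3. Cdh8, a cadherin gene, was at -0.05 against -1.26 (difference 1.21 ± 0.14, adjusted p = 5.24e-05), and Lrrn3 at 0.36 against -0.86 (difference 1.22 ± 0.14, adjusted p = 6.23e-05). The most negative were those of Plppr4 (-1.86 against 0.43 (difference -2.29 ± 0.25, adjusted p = 4.51e-05)), Sln, Ebf1, Sncb and Sphkap. Relative to Eomes cells the most positive were those of Nkd1 (1.47 against -0.66 (difference 2.12 ± 0.20, adjusted p = 9.31e-05)), Inhba, Grem1, Lhx9 and Rspo3, and the most negative those of Sparc, Kif26b, Sema5a, Tcf7l2 (-2.88 against -0.83 (difference -2.03 ± 0.31, adjusted p = 0.00360)) and Sparcl1.

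**Figure D5:**
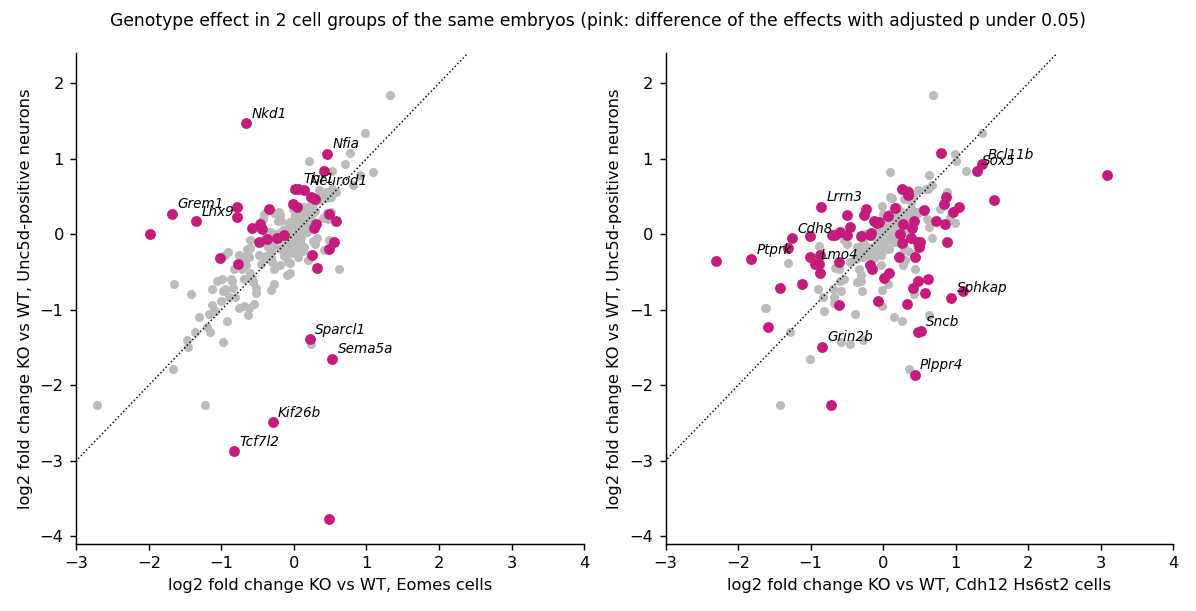
Log2 fold change of KO against WT in Unc5d-positive neurons (vertical) and in Eomes cells (left) or Cdh12 Hs6st2 cells (right) of the same embryos, for genes of 11 lists and the genes with the largest differences, pink where the difference had an adjusted p under 0.05. The dotted line marks equal effects. Bcl11b and Sox5 lie below the line on the right, with larger rises in Cdh12 Hs6st2 cells, and Sema5a and Tcf7l2 lie far below it on the left.

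For the genes on which most of the text turns, positions are those of GRCm38 in GENCODE vM21. Unc5d (ENSMUSG00000063626) lies on chromosome 8 from 28646717 to 29219636 on the minus strand, and Gatad2b (ENSMUSG00000042390) on chromosome 3 from 90293178 to 90363407 on the plus strand. Bcl11b (ENSMUSG00000048251) spans 107910403 to 108003602 on the minus strand of chromosome 12, Nfia (ENSMUSG00000028565) spans 97772734 to 98118874 on the plus strand of chromosome 4, and Sox5 (ENSMUSG00000041540) spans 143828425 to 144781977 on the minus strand of chromosome 6.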

How the data were processed

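Cortex of Gatad2b WT, Het and KO mouse embryos was dissociated and run on 10x 3′ v3 droplets, 1 library per embryo. The authors deposited filtered matrices of UMI counts per gene and cell, raw and not normalized. The submitters' processing notes name Cell Ranger 6.0.2 and mm10. The study's methods name an earlier Cell Ranger release, and the deposited counts do not settle which was used. The study tested genes cell by cell, whereas here cells were summed per embryo, so that an embryo is the unit of replication. The files hold 31053 genes, of which 31011 were found in GENCODE vM21.

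Barcodes under 1000 UMIs, or over 10% mitochondrial UMIs, were dropped. Doublets were scored with Scrublet in scanpy 1.11.5. Its automatic threshold marked 0.0512% to 2.76% of kept cells, so the cells of highest score, at 0.8% per 1000 barcodes, were marked instead. They stayed in the main fits and were dropped in an alternative. Among Unc5d-positive neurons the marked share was 6.78% to 7.32% in WT embryos, 3.88% to 5.38% in Het and 3.47% to 3.99% in KO embryos. The number marked per library was set by its barcodes. Over all kept cells the marked share was 7.42% to 8.31% in WT embryos, 5.20% to 7.46% in Het and 4.80% to 5.85% in KO embryos. Pairs of libraries shared 4 to 19 barcodes, at most 0.325% of a library. For shares, cells were also thinned at random to 5000 UMIs, and shallower cells were left out.

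Summed counts were filtered with filterByExpr, scaled by TMM and tested with edgeR 4.0.16 (limma 3.58.1, R 4.3.3) over all 10 embryos, with DESeq2 1.42.0 as an alternative. Whether effects differed between cell groups was tested as an interaction with the embryo as a block. Shares were compared with exact two-sided permutation tests, adjusted over 3 comparisons, in scipy 1.17.1. Scripts were tested on simulated data. Alternatives changed the normalization, the filters, the rule's limits, the doublets, the library prefix as a covariate, the replicate block and the embryos left out. Leaving out neurons with UMIs of other cell types, and the share with a Bcl11b UMI, were added after the data had been seen.

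The members, the gene lists and the genes named were chosen with earlier results of these data known. The text names genes of the lists, and for each comparison the 10 called genes of largest increase and of largest decrease whose groups did not overlap, and the 5 of largest difference between cell groups each way, at a mean of at least 10 CPM in 1 group and without hemoglobin, rDNA, Y-linked, Xist, Gm and Rik genes. Genes leading the ratio of Unc5d-positive neurons to other cells were named on that ratio, Rik names left out. Some genes of the lists, and a planned share of cells that needs one of them, are not reported here and enter no list count.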

Additional observations from a re-analysis of the deposited data

Results flagged for a closer look

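Of 201 sets of values of the 4 Het embryos (genes named in the text, rule genes aside, and 2 shares), 12 had an embryo standing apart from the other 3 by Dixon's criterion. That criterion flags about 1 in 20 independent sets by chance. These sets come from the same 4 embryos and are not independent, so the 12 cannot be judged against that rate. No explanation was tested for any of them.

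Of the 12, 6 were values of Het4, the Het embryo with the library prefix of WT. Het4 lay below the other Het embryos for Cdk2ap1 (139 CPM against 195 to 205), Nhlh2 (44.5 against 53.8 to 55.5), Robo1 (91.8 against 137 to 145) and Slc24a5 (176 against 293 to 306). It lay above them for H1f0 (289 CPM against 259 to 262) and Nfasc (173 against 162). Het2 stood apart for Ebf1 (21.9 CPM against 12.3 to 13.9), Ly6g6e (22.7 against 25.4 to 25.7), Sez6l (21.5 against 24.4 to 25.0) and Stmn4 (234 against 255 to 260). Het3 stood apart for 2 layer V genes of low level, Etv1 (10.3 CPM against 5.15 to 5.42) and Thy1 (4.36 against 2.11 to 2.45).

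The effect of KO differed between Unc5d-positive neurons and a neighbouring cell group of the same embryos, by edgeR's interaction test, for 22 of the differences described above. Against Cdh12 Hs6st2 cells the difference in log2 fold change was -0.43 for Bcl11b, -0.45 for Sox5, -1.08 for Fezf2, -0.68 for Nfib, -1.21 for Ldb2, -1.50 for Etv1, -0.72 for Nxph4, -0.63 for Grin2b, -1.11 for Gria1, -1.26 for Ephb1, -2.29 for Plppr4, 0.52 for Cux2, 1.21 for Cdh8 and 1.22 for Lrrn3. Against Eomes cells it was 0.55 for Tbr1, 0.62 for Nfia, 0.61 for Flrt3, 0.45 for Neurod1, 0.43 for Dpy19l1, 2.12 for Nkd1, -2.03 for Tcf7l2 and -2.16 for Sema5a.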

How the results depend on the processing

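The counts of called genes depended on the processing most in Het against WT. The 91 calls became 161 with DESeq2, 546 with no filter on low counts, 5 with the library prefix as a covariate, 13 with only WT and Het in the fit, 57 with at least 3 Unc5d UMIs asked for, and 34 without the neurons holding UMIs of other cell types. Leaving out 1 embryo gave 13 to 540, with 13 without WT3 and 540 without Het4. The 2287 calls in KO against WT became 417 with the prefix as a covariate, of which 356 were among the 2287 and 58.0% were higher rather than 47.5%, and leaving out 1 embryo gave 1555 to 2433. The 379 calls in KO against Het became 751 with no filter, of which 41.9% were higher rather than 53.6%, 595 within 1 prefix (344 shared), and 146 to 478 with 1 embryo left out, the lowest without KO3. The 670 genes whose KO effect differed from that in Cdh12 Hs6st2 cells became 1372 with no filter, 179 with a prefix term in each cell group and 358 to 679 with 1 embryo left out. The difference for Tbr1 in that contrast, which did not pass the test (-0.02), was -0.48 (adjusted p = 0.0850) with the prefix term, 0.016 with no filter and -0.084 to 0.029 with 1 embryo left out. The 363 against Eomes cells became 893, 23 and 150 to 394. The differences in shares kept their direction under every alternative run. With 1 embryo left out they were 0.594 to 2.14 points for Het against WT, 3.73 to 4.79 for KO against WT and 2.18 to 3.54 for KO against Het, and for the share with a Bcl11b UMI 12.0 to 13.6, 28.5 to 30.2 and 15.8 to 17.2 points.

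Of 140 genes named in the text and called in KO against WT, 63 kept their call with the prefix as a covariate, and 1 reversed, Fos (1.69 to -0.22), which follows the prefix. Of 32 called in Het against WT, 1 kept its call in that fit. Of 57 called in KO against Het, 56 kept it within 1 prefix. Removing doublets kept 126 of the 140, and asking for at most 5% mitochondrial UMIs also kept 126.

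The labels number embryos 1 to 3 in WT and KO and 1 to 4 in Het. Deviations of same-numbered embryos were correlated above 0.1 in 1 of 9 pairs (median r = -0.03, against 0.01 for other pairs). That pair was WT1 and Het1 (r = 0.229). The numbers were not used as pairs in the main fits, and whether any embryos are paired is not known from the labels. With the replicate block the calls were 546 in Het against WT, 2452 in KO against WT and 434 in KO against Het. Het4 has no partner of its number, so in that fit it does not bear on the differences between genotypes. Leaving out Het4, with no block, gave 540 calls in Het against WT. Other causes of these shifts were not tested. Depth limits low genes and cells near the rule's limits.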
